A study of Bos taurus with 4 samples.

Results

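The nuclear-encoded subunits of the mitochondrial respiratory chain were followed by complex in bovine intramuscular preadipocytes. Members were the probes whose gene name in the array annotation began with the root of a subunit family (NDUFA, NDUFB, NDUFC, NDUFS or NDUFV with a number, SDHA to SDHD, UQCR, COX4 to COX8, or ATP5), leaving out the NDUFAF assembly factors. This gave 201 of 43653 probes, which stand for 83 of 25151 genes. The rule used names alone and no measured value. By complex, 36 genes belonged to complex I, 4 to complex II, 8 to complex III, 17 to complex IV (NDUFA4 counted here) and 15 to complex V. The other 3 matched by name but are not subunits in the usual sense: NDUFA4L2, a paralogue of NDUFA4, and DMAC2L and DMAC2, which the array annotation still lists as ATP5S and ATP5SL. Most complex V genes carry older names in the files and are given here by their current symbols. CYC1, the mitochondrially encoded subunits and ATP5IF1 do not match the rule and were not members.

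There were 4 groups. Confluent preadipocytes (BIP) were used in all groups, and adipogenic stimulation meant medium with 10% fetal bovine serum, insulin at 50 ng/mL, dexamethasone at 0.25 µM, octanoate at 5 mM and acetic acid at 10 mM, renewed every 2 days. The ATRA group was harvested on day 6 of stimulation with all-trans retinoic acid at 1 µM, the 9cRA group on day 6 with 9-cis retinoic acid at 1 µM, the day 6 control group on day 6 with neither, and the day 0 group at the start. The retinoids are stereoisomers, both acid forms of vitamin A. In the labels every group is 1 sample with 3 arrays, and nothing says that the 3 came from separate cultures, so the spread behind every p-value is that between arrays and could be purely technical.

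The respiratory chain passes electrons from NADH (complex I) or succinate (complex II) by way of ubiquinone to complex III, and on through cytochrome c to oxygen at complex IV. The proton gradient built by complexes I, III and IV drives ATP synthesis at complex V. Complex II is also an enzyme of the tricarboxylic acid cycle and is the only complex with no mitochondrially encoded subunit. Making and storing fat draws on mitochondria for citrate and ATP, and white fat cell differentiation is commonly accompanied by changes in mitochondrial content.

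Complex II and the core of complex I carried some of the larger decreases over the 6 days, and probes that measured them are shown so that what each spot detects can be seen, with COX4I1 of complex IV as a contrast. All 7 lie in coding sequence of UMD 3.1 and are given 5′ to 3′ from the array annotation, in lower case with no part marked. SDHA, the flavoprotein of complex II, had probes at chr20:71955136-71956157, chr20:71943497-71944947 (both spanning an intron) and chr20:71941666-71941725, all on the minus strand. The SDHB probe lies at chr2:136148176-136148235, that of NDUFV1 at chr29:46111789-46111848, that of NDUFS7 at chr7:45432207-45432725 (spanning an intron) and that of COX4I1 at chr18:11806206-11806265, all on the plus strand.
SDHA, 5′ probe: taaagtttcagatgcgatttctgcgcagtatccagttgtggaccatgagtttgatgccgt
SDHA, middle probe: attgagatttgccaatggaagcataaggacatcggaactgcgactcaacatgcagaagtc
SDHA, 3′ probe: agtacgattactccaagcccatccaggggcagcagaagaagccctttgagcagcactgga
SDHB: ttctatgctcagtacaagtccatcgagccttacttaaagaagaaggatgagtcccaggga
NDUFV1: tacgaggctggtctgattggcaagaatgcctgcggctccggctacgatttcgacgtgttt
NDUFS7: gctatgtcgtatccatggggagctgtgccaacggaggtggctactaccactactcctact
COX4I1: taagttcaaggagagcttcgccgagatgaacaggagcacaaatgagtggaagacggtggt
In day 6 control against day 0, the 3 SDHA probes differed by -1.10, -1.23 and -1.25 on the log2 scale, the SDHB probe by -1.38, the NDUFV1 probe by -0.99, the NDUFS7 probe by -1.05 and the COX4I1 probe by -0.52. Apart from that of SDHB, these are not the brightest probe of their gene. The brightest gives the gene values below (-0.33 for COX4I1, -0.77 for NDUFV1, -0.95 for NDUFS7 and -1.06 for SDHA). The NDUFV1 and NDUFS7 probes shown lie 5′ of the brightest one. Differences tended to be lower at 5′ probes, as given below. Complex III offers a check of a different kind, because the array holds a pair of UQCRC1 probes at chr22:51851014-51851073 and chr22:51851026-51851084 (plus strand) that share 44 bases, in capitals below.
UQCRC1, first: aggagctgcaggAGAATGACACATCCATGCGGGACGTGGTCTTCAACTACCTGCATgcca
UQCRC1, second: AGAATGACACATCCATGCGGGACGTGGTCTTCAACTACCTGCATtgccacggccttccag
The pair differed by -0.93 and -0.92 over the same interval, so spots with nearly the same sequence gave nearly the same difference. They are not independent measurements, and the brightest UQCRC1 probe, which lies nearer the 3′ end and is used below, differed by -0.64.

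Levels below are log2 of the spot signal, corrected for background by the scanner software, over the 75th percentile of signals on the same array. A gene is represented by its brightest probe. A gene was tested if some group had that probe well above background on each of its 3 arrays, which held for 81 of the 83 members and for 17622 genes in all. It was called when the adjusted p of limma, a linear model fitted across all genes and all 12 arrays with Benjamini-Hochberg adjustment, was under 0.05. The members left untested were COX4I2, the isoform of COX4 known from lung and from low oxygen, which was well above background on 1 array of the day 6 control group alone, and COX7B2, which was on none. Counts below are of the 81, not of all members. Of the 3 slides, the first carried day 6 control array 1 beside all day 0 arrays, the next carried ATRA arrays 1 and 2 with the remaining day 6 control arrays, and the last carried all 9cRA arrays beside ATRA array 3. With slide as a block, day 6 control against day 0 therefore rests on day 6 control array 1 alone. That array had 64.8% of probe spots well above background, against 68.7% to 74.0% on the other arrays, and 103 non-uniform spots against 0 to 2.

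The first comparison sets subunit mRNA after 6 days of adipogenic stimulation against its start. No group was cultured for 6 days without stimulation, so time in culture and stimulation cannot be told apart. Of the 81 tested members, 59 fell in day 6 control against day 0, 2 rose (NDUFA4L2 and COX6B2) and 20 were not called. Over all genes tested, 31.3% fell and 31.0% rose. The median difference of the members was -0.35, that of all genes 0.00. The difference was below 0 for 75 members, was at least 1.5-fold downward for 18 and at least 2-fold for 3, which were SDHB, SDHA and DMAC2L. Over all genes 5.82% fell by at least 2-fold. Arrays of day 6 control lay wholly below those of day 0 for 62 members and wholly above for 2, against 34.7% and 32.9% of all genes.

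The median over all members was 4.01, 3.81 and 3.60 on the 3 day 6 control arrays and 4.20, 4.22 and 4.26 on the 3 day 0 arrays. All day 6 control arrays lay below all day 0 arrays, and array 1, the only one that shared a slide with day 0, lay nearest to them. With slide as a block, 31 members fell and 1 rose, and the median difference was -0.19, against 28.2% of all genes falling and 25.3% rising. Quantile normalization moved the median to -0.21, with 44 members falling and 5 rising, against 30.9% and 31.8% of all genes. The array medians are of RNA in whole cultures, in which fewer cells of a type and less RNA per cell cannot be told apart.

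**Figure D1:**
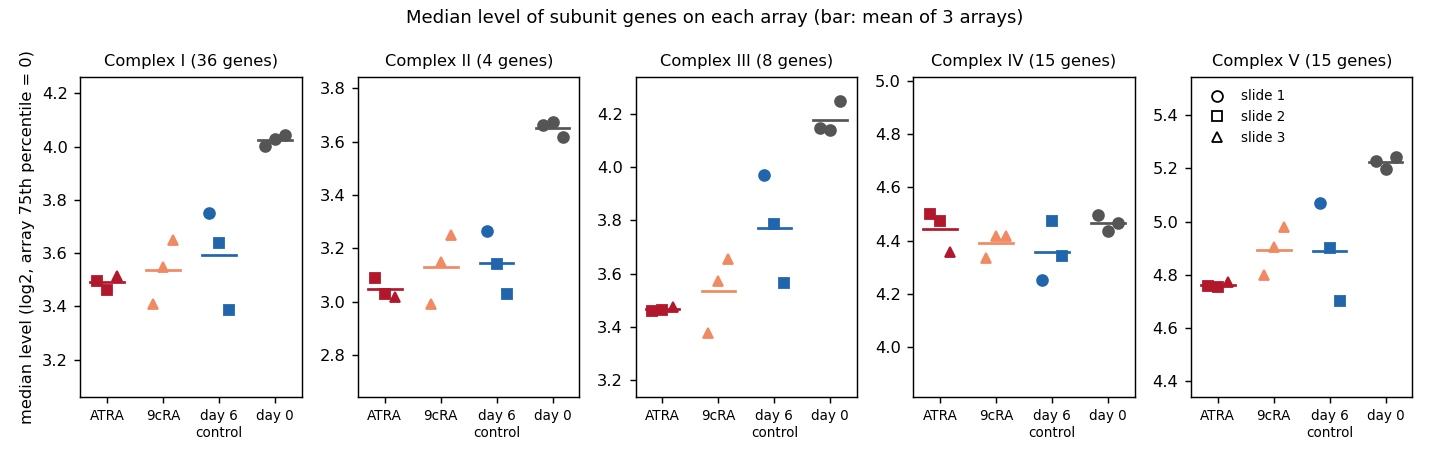
Median level of the tested genes of each complex (panels) on each of the 12 arrays, as log2 over the array's 75th percentile, with groups along the x axis, a bar at the mean of 3 arrays and point shapes for the slide. Complex II shows a wide gap between day 6 control arrays (3.03 to 3.26) and day 0 arrays (3.62 to 3.67), while the complex IV arrays of these groups overlap.

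Complex I takes electrons from NADH. Of its 36 tested genes, 28 fell in day 6 control against day 0 and none rose, with a median difference of -0.38 and a range of -0.96 to 0.02. Among the 7 core subunits, which carry the flavin, the iron-sulphur clusters and the quinone site, 6 fell with a median of -0.46. Among the 29 accessory subunits 22 fell, with a median of -0.34. The median over complex I was 3.75, 3.64 and 3.39 on day 6 control arrays and 4.0, 4.03 and 4.04 on day 0 arrays. The block left 16 of the 36 falling (44.4%, against 28.2% of all genes), 5 of the 7 core subunits among them.

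NDUFB3, an accessory subunit of the membrane arm, had levels of 2.60, 2.36 and 2.30 on day 6 control arrays and 3.41, 3.32 and 3.41 on day 0 arrays. The groups did not overlap. The difference of -0.96 (SE 0.09, n = 3 arrays each) is 1.95-fold downward, with an adjusted p of 5.28e-06 by limma, and it was -0.78 with slide as a block (adjusted p 0.000374). NDUFS7, a core subunit of the iron-sulphur chain next to the quinone site, had 2.71, 2.59 and 2.33 on day 6 control arrays and 3.48, 3.52 and 3.49 on day 0 arrays. The day 6 control arrays were all lower, with a difference of -0.95 (SE 0.09, limma adjusted p 5.4e-06; -0.79 and 0.000252 with the block). NDUFV1, the core subunit that binds NADH and FMN, had 3.65, 3.70 and 3.40 on day 6 control arrays and 4.32, 4.38 and 4.37 on day 0 arrays. Again no arrays overlapped, and the difference of -0.77 (SE 0.08, limma adjusted p 9.68e-06) was -0.70 with the block (0.000814).

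At the other end of complex I, NDUFS5, a small accessory subunit on the intermembrane side, had 5.06, 5.09 and 4.87 on day 6 control arrays and 5.01, 4.96 and 4.99 on day 0 arrays. The groups overlapped (0.02, limma adjusted p 0.801). NDUFA3 differed by -0.03 (0.823) at its brightest probe. Its other probes went apart, with -0.26 (0.0124) and -0.19 (0.048) for a pair designed on the RefSeq mRNA and 1.31 (0.000552) for a dim probe designed on another transcript, so its direction is uncertain.

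Complex II links the tricarboxylic acid cycle to the chain, and all 4 of its genes fell in day 6 control against day 0, with a median of -0.75. SDHB, the iron-sulphur subunit, had levels of 2.10, 1.78 and 1.70 on day 6 control arrays and 3.26, 3.28 and 3.18 on day 0 arrays. Its difference of -1.38 (SE 0.11), 2.6-fold downward, was the farthest below 0 among the members (limma adjusted p 2.1e-06; -1.14 and 8.42e-05 with slide as a block). SDHA had 4.96, 4.81 and 4.68 on day 6 control arrays and 5.87, 5.91 and 5.85 on day 0 arrays, measured by a probe in the 3′ untranslated region at chr20:71940783-71940842. The groups were far apart, with a difference of -1.06 (SE 0.07), 2.09-fold downward (limma adjusted p 4.56e-07; -0.92 and 3.1e-05 with the block), close to those of the 3 coding probes shown above.

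The membrane anchors of complex II differed less. SDHD had 2.67, 2.53 and 2.50 on day 6 control arrays and 2.95, 3.03 and 3.03 on day 0 arrays, a difference of -0.43 (SE 0.06, limma adjusted p 0.000163; -0.33 and 0.00944 with the block). SDHC had 3.85, 3.76 and 3.56 on day 6 control arrays and 4.06, 4.07 and 4.06 on day 0 arrays, a difference of -0.34 (SE 0.09, 0.00828). Neither anchor's arrays overlapped between groups, but SDHC was not called under the block (-0.21, adjusted p 0.193). Whether the catalytic pair and the anchors differ from each other was not tested.

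**Figure D2:**
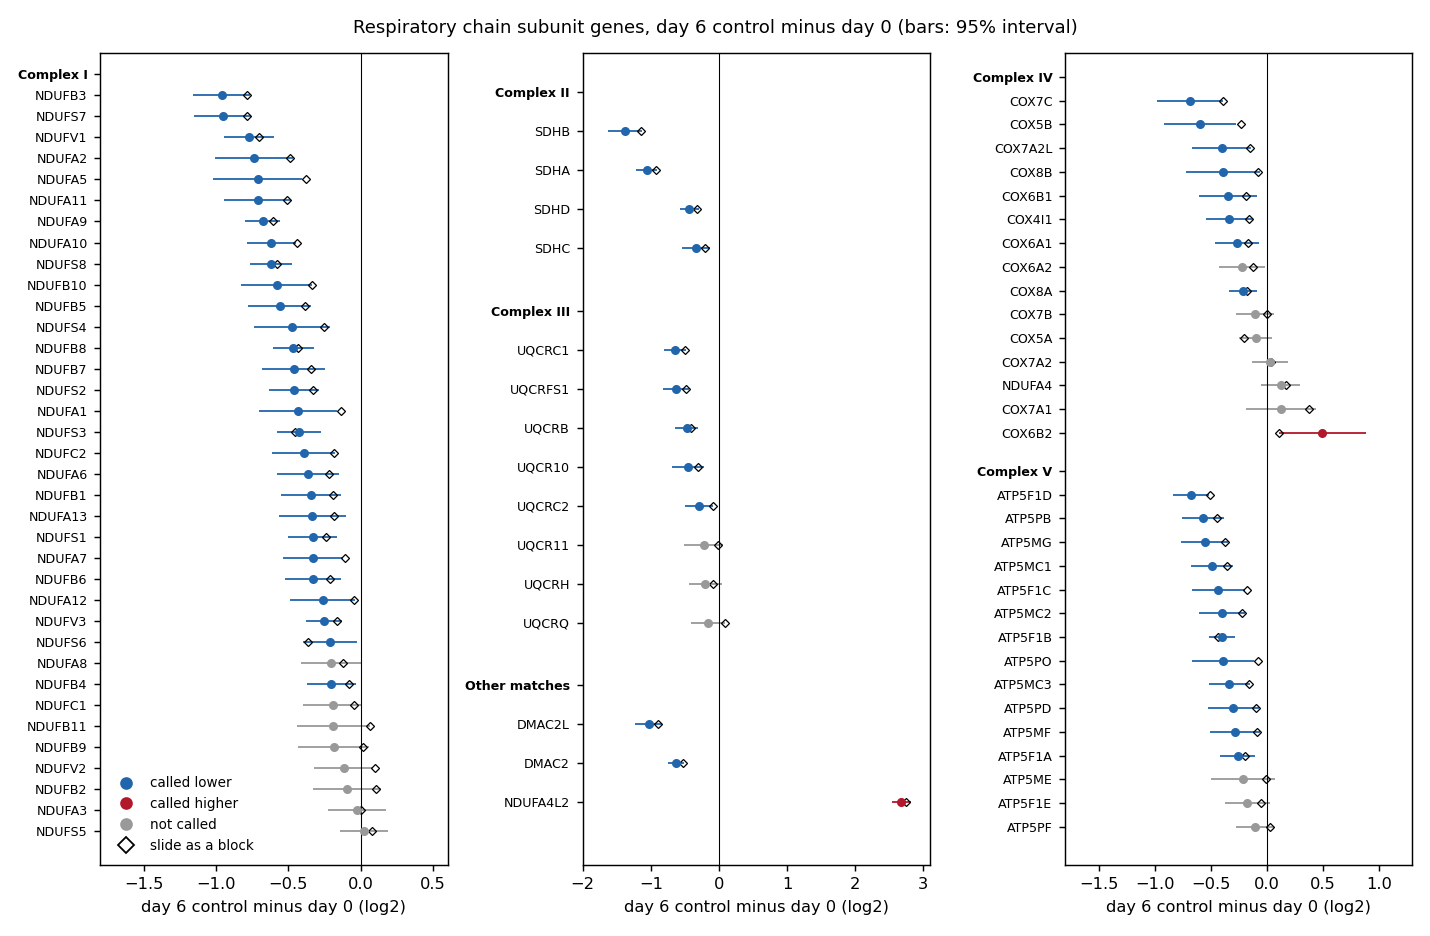
Log2 difference of day 6 control minus day 0 for each tested member by complex (points coloured by call, bars for the 95% interval from limma), with open diamonds for the value with slide as a block. Most points lie below 0, SDHB (-1.38) and SDHA (-1.06) are lowest among subunits, NDUFA4L2 stands apart at 2.68, and most diamonds lie nearer 0 than their points.

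Complex III passes electrons from ubiquinol to cytochrome c. Of its 8 tested genes, 5 fell in day 6 control against day 0 and none rose, with a median of -0.37. UQCRC1, a core protein on the matrix side, had 3.90, 3.76 and 3.60 on day 6 control arrays and 4.39, 4.37 and 4.42 on day 0 arrays. The groups did not overlap (-0.64, SE 0.07, limma adjusted p 2.74e-05; -0.49 and 0.000756 with the block). UQCRFS1, the Rieske iron-sulphur protein, had 3.72, 3.54 and 3.48 on day 6 control arrays and 4.15, 4.22 and 4.26 on day 0 arrays. That difference was -0.63 (SE 0.08, 8.61e-05; -0.49 and 0.00589 with the block). UQCRB, which lies near the quinone site, differed by -0.47 (0.000281). The small subunits UQCR11 (-0.23, adjusted p 0.151) and UQCRQ (-0.16, 0.239) were not called.

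Complex IV, cytochrome c oxidase, was mixed. Of 15 tested genes 8 fell, 1 rose and 6 were not called, with a median of -0.22. Its array medians were 4.25, 4.47 and 4.34 in day 6 control and 4.50, 4.44 and 4.47 in day 0, and these overlap. Under the block 2 of the 15 fell (13.3%, against 28.2% of all genes), COX7C and COX5A. COX5A was called only there (-0.20, limma adjusted p 0.0439) and is named after its value was seen. COX7C, a small structural subunit, had 5.11, 4.76 and 4.59 on day 6 control arrays and 5.52, 5.45 and 5.54 on day 0 arrays. The arrays did not overlap, with a difference of -0.68 (SE 0.13, limma adjusted p 0.0011; -0.39 and 0.0487 with the block). COX5B, the zinc-binding subunit, had 5.21, 4.79 and 4.54 on day 6 control arrays and 5.41, 5.44 and 5.48 on day 0 arrays. Its call (-0.60, SE 0.14, 0.00422) was lost with the block (-0.23, 0.167), since day 6 control array 1 lay close to day 0.

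Several complex IV subunits exist as tissue isoforms. COX4I1, the widespread form of COX4, had 6.02, 5.88 and 5.65 on day 6 control arrays and 6.18, 6.21 and 6.16 on day 0 arrays, and fell by 0.33 on the log2 scale (SE 0.09, limma adjusted p 0.0105), a call lost with the block (-0.16, 0.281). The liver-type forms COX6A1 (-0.27, 0.0227) and COX8A (-0.21, 0.00785), the widespread form COX6B1 (-0.35, 0.0241) and COX7A2L (-0.40, 0.0128), known from supercomplex assembly, also fell. None of these 4 was called with the block, and without day 6 control array 3 the calls of COX6A1, COX6B1 and COX7A2L were lost (highest adjusted p over fits that left out 1 array 0.0858, 0.0828 and 0.0503). The muscle forms did not follow a single course. COX8B was dim and fell (-0.39, 0.0416; block -0.08, 0.642), a call lost in 7 of the 12 fits that left out 1 array, with levels of -3.82, -4.21 and -4.37 on day 6 control arrays and -3.81, -3.71 and -3.69 on day 0 arrays. COX6A2 was not called (-0.22, 0.0609), nor was COX7A1 (0.13, 95% interval -0.18 to 0.44, 0.446). COX7A2 (0.03, 0.738) and NDUFA4 (0.12, 0.197) were not called either.

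COX6B2, known in mammals as the testis form of COX6B, had 1.27, 1.88 and 1.83 on day 6 control arrays and 1.15, 1.24 and 1.10 on day 0 arrays. It rose by 0.50 (SE 0.17, limma adjusted p 0.03). The rise was small on day 6 control array 1, the call was absent with slide as a block (0.11, 0.538), and it was lost in 4 of the 12 fits that left out 1 array (adjusted p 0.00222 to 0.11).

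Complex V makes ATP. Of its 15 tested genes 12 fell in day 6 control against day 0 and none rose, with a median of -0.39. The falls covered each part of the enzyme: 2 of 2 genes of the F1 head, 2 of 3 of the central stalk and 3 of 3 encoding the c ring. They also covered 3 of 4 of the peripheral stalk and 2 of 3 of the other membrane part. ATP5PO of the peripheral stalk, named after its values were seen, fell at its brightest probe (-0.39). A probe of it nearer the 3′ end differed by 0.65 and was not called, so its direction is uncertain. ATP5F1D, the delta subunit of the central stalk, had 2.91, 2.71 and 2.59 on day 6 control arrays and 3.41, 3.43 and 3.41 on day 0 arrays. The groups did not overlap (-0.68, SE 0.07, limma adjusted p 1.61e-05; -0.51 and 0.000326 with the block). ATP5PB, the b subunit of the peripheral stalk, had 3.80, 3.67 and 3.55 on day 6 control arrays and 4.24, 4.22 and 4.28 on day 0 arrays. It differed by -0.57 (SE 0.09, 0.000184; -0.44 and 0.0119 with the block). ATP5MG, the g subunit of the membrane part, differed by -0.55 (SE 0.09, 0.000416; -0.37 and 0.0212 with the block). Under the block 5 of the 15 fell, 1 in each part named above. That is 33.3% of complex V, near the 28.2% of all genes falling under the block. ATP5IF1, the inhibitor protein of complex V and no member, fell by 0.37 on the log2 scale (SE 0.07, 0.00119).

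**Figure D3:**
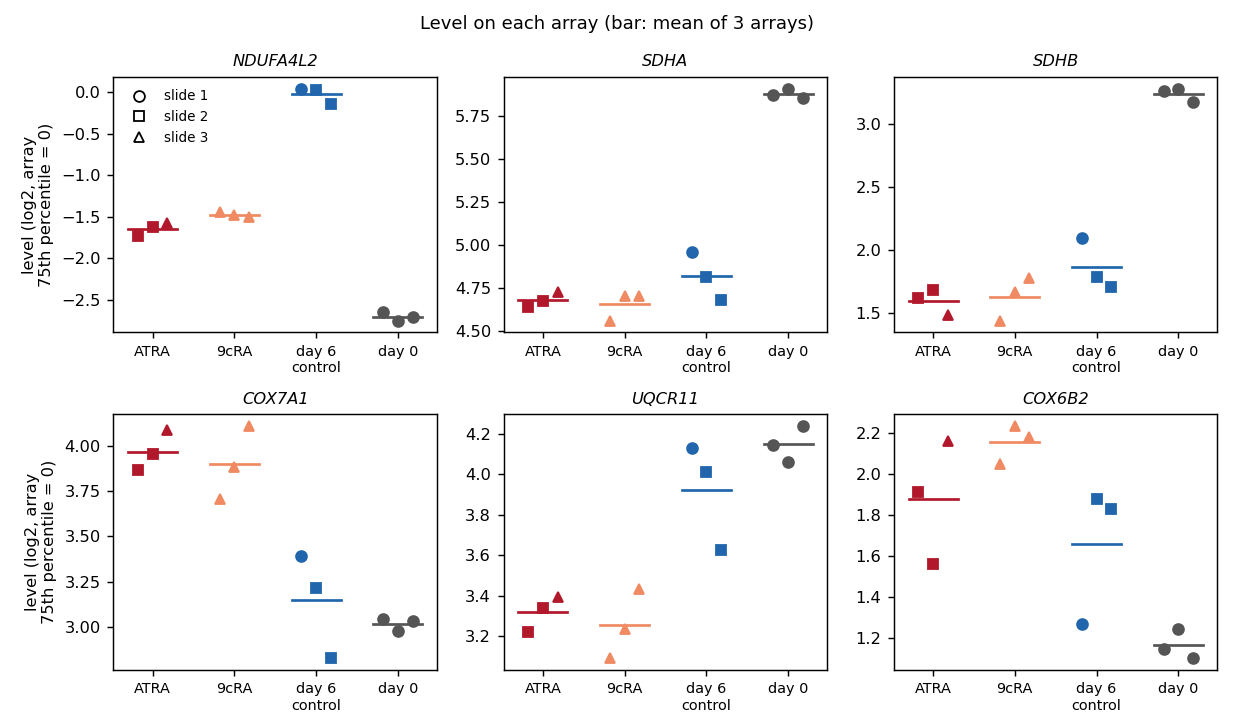
Levels of 6 members on every array, as log2 over the array's 75th percentile, by group, with a bar at the mean of 3 arrays and point shapes for the slide. For SDHA and SDHB the day 0 arrays stand above the other 9, for NDUFA4L2 the day 6 control arrays stand above all others, and for COX6B2 day 6 control array 1 lies near day 0.

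The 3 genes that matched by name alone moved in different directions. NDUFA4L2 is known in human and mouse cells as a hypoxia-inducible gene that lowers complex I activity. Its probe lies at chr5:56539257-56539316 (plus strand, UMD 3.1). Levels were 0.04, 0.03 and -0.14 on day 6 control arrays and -2.65, -2.75 and -2.70 on day 0 arrays. The gap was many times the spread within either group. The difference of 2.68 (SE 0.06), 6.4-fold upward, had a limma adjusted p of 2.59e-10 and was 2.74 with the block (1.19e-07). DMAC2L, named after its values were seen and related to a coupling factor of ATP synthase, had -0.23, -0.32 and -0.54 on day 6 control arrays and 0.60, 0.68 and 0.72 on day 0 arrays. It fell by 1.03 on the log2 scale (SE 0.09, 3.08e-06; -0.89 and 0.000233 with the block). DMAC2, named likewise and known as an assembly factor of complex I, differed by -0.63 (SE 0.05, 2.57e-06; -0.53 and 0.000123 with the block).

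The next comparisons ask what a retinoid present over the same 6 days did. They share the day 6 control arrays, so likeness between them is not independent. In ATRA against day 6 control, 7 of the 81 tested members fell and 3 rose, against 22.4% and 23.7% of all genes, and the median was -0.05 against 0.05 over all genes. In 9cRA against day 6 control, 7 fell and 7 rose, against 21.8% and 24.8% of all genes, with a median of 0.00 against 0.06. By share, fewer members than background genes were thus called in either direction in this fit. For falls, this depended on day 6 control array 3, as given below. The median over all members was 3.72, 3.76 and 3.86 on ATRA arrays, 3.67, 3.78 and 3.88 on 9cRA arrays, and 4.01, 3.81 and 3.60 on day 6 control arrays, and the retinoid arrays lay inside the day 6 control range. With arrays scaled to their median, 12 members fell and 1 rose with ATRA, against 24.9% and 18.4% of all genes, and 9 fell and 2 rose with 9cRA, against 24.7% and 19.1%. That scaling moves all genes of an array alike.

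**Figure D4:**
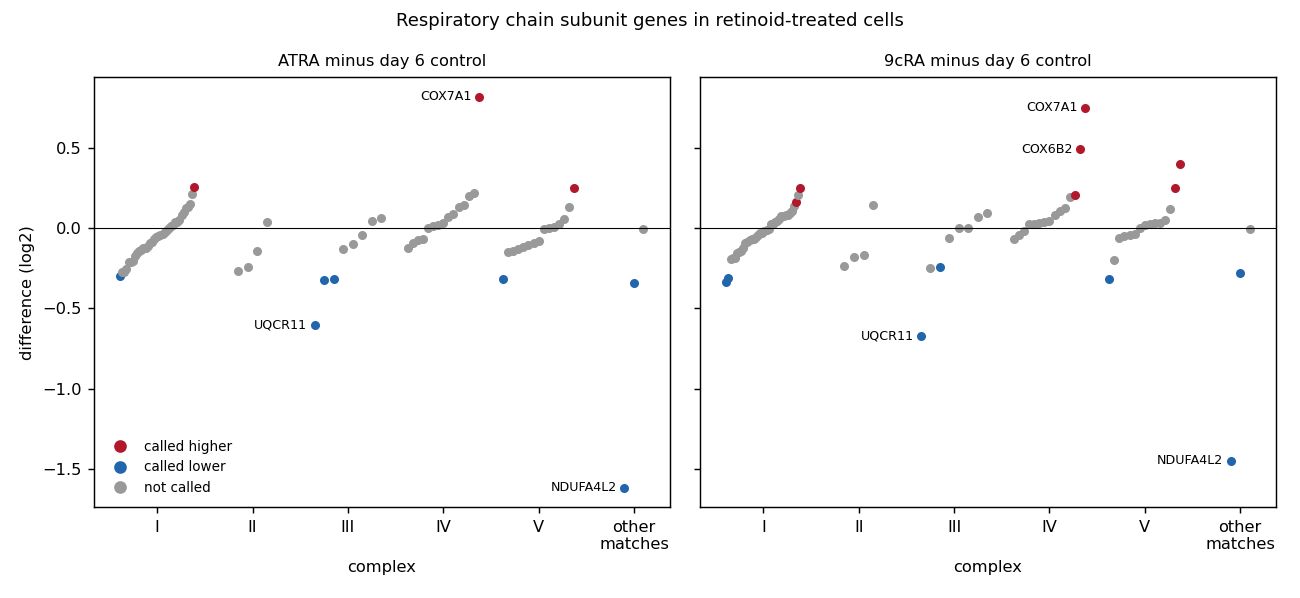
Log2 difference against day 6 control for each tested member, sorted within its complex along the x axis, with ATRA in the left panel and 9cRA in the right panel, which use the same day 6 control arrays, and colours for the call. Most points lie near 0, with NDUFA4L2 low in both (-1.62 and -1.45), UQCR11 lower (-0.60 and -0.67) and COX7A1 higher (0.82 and 0.75).

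COX7A1 is the heart and muscle form of COX7A, at chr18:46994986-46995045 (minus strand). It had 3.86, 3.96 and 4.08 on ATRA arrays, 3.71, 3.88 and 4.11 on 9cRA arrays and 3.39, 3.22 and 2.83 on day 6 control arrays. All retinoid arrays lay above all day 6 control arrays. It rose by 0.82 with ATRA (SE 0.14, 1.77-fold, limma adjusted p 0.0008; 0.89 and 0.00187 with slide as a block) and by 0.75 with 9cRA (1.69-fold, 0.00146). The 9cRA call was not kept with the block (0.70, 0.0595). A second COX7A1 probe differed by 0.80 with ATRA and 0.66 with 9cRA. COX7A2, the widespread form, was called with neither.

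UQCR11, a small subunit of complex III at chr7:45592773-45592832 (minus strand), had 3.22, 3.34 and 3.39 on ATRA arrays, 3.09, 3.24 and 3.43 on 9cRA arrays and 4.13, 4.01 and 3.63 on day 6 control arrays. The groups did not overlap, though day 6 control array 3 lay near the retinoid arrays. It fell by 0.60 on the log2 scale with ATRA (SE 0.13, 1.52-fold, limma adjusted p 0.00314; -0.54 and 0.0191 with the block) and by 0.67 with 9cRA (1.59-fold, 0.00175; -0.68 and 0.0611 with the block). Its second probe differed by -0.60 and -0.69. UQCRB also fell with both retinoids (-0.32, 0.00522 with ATRA and -0.24, 0.0246 with 9cRA), and UQCRQ with ATRA (-0.31, 0.0401). UQCRB levels were 2.97, 3.08 and 2.98 on ATRA arrays, 2.99, 3.07 and 3.23 on 9cRA arrays and 3.40, 3.38 and 3.22 on day 6 control arrays. The 9cRA and day 6 control arrays of UQCRB overlapped, and its 9cRA call was lost in 4 of the 12 fits that left out 1 array (adjusted p up to 0.0862). The UQCRQ call was lost in 9 of them (up to 0.123). Neither gene was called with the block in ATRA (-0.28, 0.0505 for UQCRB and -0.21, 0.165 for UQCRQ).

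Of complex I, NDUFS1, the largest core subunit of the iron-sulphur arm, had 1.79, 1.78 and 1.64 on ATRA arrays, 1.57, 1.69 and 1.84 on 9cRA arrays and 2.12, 1.97 and 2.00 on day 6 control arrays. It fell in both (-0.30, limma adjusted p 0.00905 with ATRA and -0.33, 0.00503 with 9cRA), with no overlap of arrays. NDUFS5 had 5.23, 5.28 and 5.29 on ATRA arrays, 5.15, 5.23 and 5.40 on 9cRA arrays and 5.06, 5.09 and 4.87 on day 6 control arrays, and rose in both (0.26, 0.0176 and 0.25, 0.0188). The NDUFS5 calls were lost without day 6 control array 3 or some retinoid arrays (adjusted p up to 0.0544 with ATRA and 0.0643 with 9cRA). NDUFA11, of the membrane arm, fell with 9cRA (-0.31, 0.0312), a call lost in 4 of the 12 fits that left out 1 array (up to 0.108). With the block in ATRA, NDUFS1 (-0.20, 0.0913) and NDUFS5 (0.27, 0.0562) were no longer called.

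No gene of complex II was called at its brightest probe with either retinoid by limma. An unadjusted p under 0.05 was seen for 2 of 4 in each comparison (53.7% of all genes with ATRA and 54.1% with 9cRA). With each probe on its own, 1 of 10 complex II probes fell with ATRA and 2 with 9cRA, and none rose. Over all probes 21.6% and 20.8% fell. SDHB had 1.62, 1.68 and 1.48 on ATRA arrays, 1.44, 1.67 and 1.78 on 9cRA arrays and 2.10, 1.78 and 1.70 on day 6 control arrays. Its differences were -0.27 with ATRA (0.0782) and -0.24 with 9cRA (0.112). SDHA differed by -0.14 (0.137) and -0.16 (0.0855), SDHC by -0.24 (0.0573) and -0.18 (0.134), and SDHD by 0.04 (0.631) and 0.15 (0.0821).

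In complex V, ATP5PB rose and ATP5MC1, a gene of the c ring, fell with both retinoids. ATP5PB had 3.93, 3.92 and 3.93 on ATRA arrays, 3.88, 4.14 and 4.20 on 9cRA arrays and 3.80, 3.67 and 3.55 on day 6 control arrays, differing by 0.25 (limma adjusted p 0.035; 0.31 and 0.0383 with the block) and 0.40 (0.0033; 0.46 and 0.0652 with the block). The ATRA call of ATP5PB was lost in 5 of the 12 fits that left out 1 array (adjusted p up to 0.111). ATP5MC1 had 3.51, 3.52 and 3.57 on ATRA arrays, 3.40, 3.53 and 3.67 on 9cRA arrays and 3.98, 3.88 and 3.68 on day 6 control arrays. It differed by -0.31 in both (0.0116 and 0.0118), and was not called with the block (-0.27, 0.0597 in ATRA). ATP5MC2, another c ring gene, rose with 9cRA (0.25, 0.0449), and so did the complex IV genes COX7B (0.21, 0.0443) and COX6B2 (0.50, 0.0401). These 3 calls were lost in 8 to 10 of the 12 fits that left out 1 array, and COX6B2 had -0.12 with the block (0.682), so its direction is uncertain.

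NDUFA4L2 again differed most. It had -1.73, -1.63 and -1.57 on ATRA arrays, -1.44, -1.47 and -1.50 on 9cRA arrays and 0.04, 0.03 and -0.14 on day 6 control arrays. No arrays overlapped. It fell by 1.62 on the log2 scale with ATRA (SE 0.06, 3.07-fold, limma adjusted p 1.85e-08; -1.62 and 1.26e-06 with the block) and by 1.45 with 9cRA (2.73-fold, 4.42e-08; -1.53 and 4.89e-05 with the block). Its level with either retinoid stayed above that of day 0. NDUFA4 differed by -0.07 with ATRA and -0.04 with 9cRA.

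With slide as a block, 3 members rose and 2 fell in ATRA against day 6 control, against 18.9% and 19.9% of all genes. In 9cRA none rose and 1 fell (NDUFA4L2), against 10.3% and 12.8%. 9cRA and day 6 control share no slide, so this block compares them only by way of the ATRA arrays. Without day 6 control array 3, 21 of 81 members fell and 1 rose with ATRA, against 22.6% and 23.7% of all genes. With 9cRA 18 fell and 3 rose, against 21.6% and 24.4%. The share of members falling was then no longer below that of all genes, while the share rising still was.

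The stereoisomers were given at the same dose and time, 1 µM over 6 days. In ATRA against 9cRA none of 81 members was called by limma, and 1 had an unadjusted p under 0.05, while 0.119% of all genes were called and 10.5% had such a p. Differences of members ran between -0.28 and 0.10. The widest limit of a 95% interval was 0.67 in size, for COX6B2 (-0.28, interval -0.67 to 0.11). NDUFA4L2 differed by -0.17 (interval -0.31 to -0.03, adjusted p 0.386), COX7A1 by 0.07 (-0.24 to 0.38) and UQCR11 by 0.06 (-0.22 to 0.35). True differences of any size inside these intervals remain possible with 3 arrays a group.

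Set against day 0, the retinoid groups gave counts near those of day 6 control. In ATRA against day 0, 64 of 81 tested members fell and 4 rose (32.8% and 38.7% of all genes), with a median of -0.45. In 9cRA against day 0, 56 fell and 4 rose (32.4% and 39.0% of all genes), with a median of -0.38. All 3 comparisons share the day 0 arrays. The 4 that rose were the same in both: NDUFA4L2 (1.06 with ATRA and 1.23 with 9cRA), COX7A1 (0.95 and 0.88), COX6B2 (0.72 and 0.99) and NDUFS5 (0.28 and 0.28). SDHB was lowest in both (-1.64 and -1.61), with SDHA at -1.20 and -1.23. No ATRA or 9cRA array shared a slide with day 0. With slide as a block 22 members fell and 2 rose with ATRA (25.1% and 23.8% of all genes). With 9cRA 17 fell and 2 rose (20.9% and 19.2% of all genes). The share of members falling was thus near that of all genes under the block, at 27.2% with ATRA and 21.0% with 9cRA. The share rising, 2.47% in each, was below it. Under the block COX6B2 no longer differed upward (-0.01, adjusted p 0.964 with ATRA and -0.02, 0.963 with 9cRA), and NDUFS5 was not called (0.35, 0.0832 and 0.32, 0.202).

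Probes of a gene did not always move as 1. In ATRA against day 0, probes of NDUFA4, NDUFA6, NDUFB4 and NDUFC1 were called in opposite directions, and so were probes of NDUFA6 and NDUFC1 in 9cRA against day 0. For NDUFC1 the dim probe differed by 1.21 and the brightest by -0.40 with ATRA. For NDUFA6 the dim probe differed by 0.69 and the brightest by -0.41. A dim probe designed on another transcript was the one that rose for both. Signal from splice forms and paralogous copies cannot be told apart on such probes.

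Position of the probe moved with the result. Labelling began at the poly(A) tail, so a probe far from the 3′ end depends on longer products. Distance between probes was taken on the genome, introns included, and can be shorter along the mRNA. Among 27 members with probes 300 bases or more apart, the 5′ probe lay below the 3′ probe in day 6 control against day 0 for 23 (85.2%). The median gap was -0.15 on the log2 scale. The share over 5536 genes with such a pair was 63.0% and the median gap -0.09. The members' median difference was -0.53 at the 5′ probe and -0.42 at the 3′ probe, so it was below 0 at both. Taken array by array against the mean of day 0, the gap was -0.04 on day 6 control array 1, which shared a slide with day 0, -0.23 on array 2 and -0.15 on array 3. In ATRA against day 6 control the share was 59.3% (50.3% of all genes), and in 9cRA against day 6 control 48.1% (50.0%). The part of transcript length or RNA quality in these differences was not tested.

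**Figure D5:**
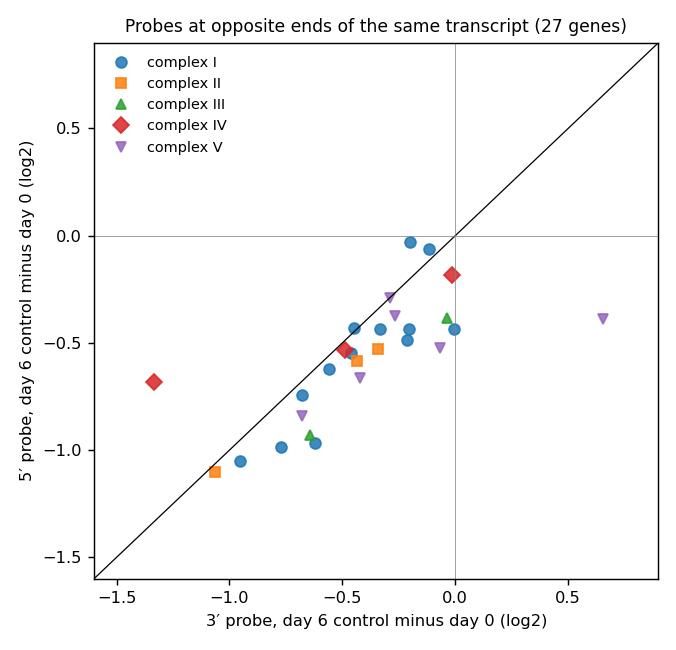
Log2 difference of day 6 control minus day 0 at the 5′ probe (y axis) and the 3′ probe (x axis) of each of 27 members with such a pair, by complex, with a line of equality. Most points lie below 0 on both axes, and 23 of 27 have the lower value at the 5′ probe.

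The genes that build and feed the chain were counted by list. Over day 6 control against day 0, assembly factors did not fall as a block: 5 of 13 tested fell and 4 rose for complex I, 1 and 1 of 4 for complex II, 2 and 1 of 6 for complex III, 8 and 4 of 19 for complex IV, and 1 and 1 of 3 for complex V, against 31.3% falling and 31.0% rising over all genes. BCS1L, which inserts the Rieske protein, differed by -0.86 (limma adjusted p 4.12e-06). COX10, of haem A synthesis, differed by -0.56 (3.55e-06), and COX15, the next enzyme of that pathway, by 1.08 (1.88e-05). LRPPRC, which stabilises mitochondrial mRNA, differed by -0.53 (1.86e-06). TMEM70, of complex V assembly, differed by 0.54 (5.62e-05), and TIMMDC1, of complex I assembly, by 0.53 (2.21e-05). In the list of cytochrome c and ubiquinone synthesis 7 of 15 fell and 4 rose, with COQ10A at -0.93 (4.08e-07).

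The tricarboxylic acid cycle list, which holds no SDH gene, had 10 of 14 falling and 2 rising, against 31.3% and 31.0% of all genes. CS, citrate synthase, differed by -0.78 (limma adjusted p 5.25e-08) and IDH3B, of the NAD-dependent isocitrate dehydrogenase, by -0.77 (1.67e-06), while IDH2, the NADP-dependent one of mitochondria, rose by 0.85 (2.54e-07). Under the block 6 of this list fell and 2 rose, against 28.2% and 25.3% of all genes. Of the outer membrane, import and chaperone list, 7 of 18 fell and 1 rose, among them MFN2 of mitochondrial fusion (-0.76, 2.96e-06) and the chaperone HSPA9 (-0.58, 1.04e-05). Of 16 regulators of mitochondrial biogenesis, 6 rose and 2 fell, with a median of -0.04 (31.0% of all genes rose): PPARGC1A, the coactivator that drives mitochondrial genes, rose by 0.59 (9.25e-06), and POLG2, of the mitochondrial DNA polymerase, by 0.68 (8.61e-07).

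The list to which NDUFA4L2 is functionally nearest is that of hypoxia-inducible switches of respiration. Of its 15 tested genes, 8 rose and 3 fell in day 6 control against day 0, against 31.0% and 31.3% of all genes. The counts of the list were the same with slide as a block, against 25.3% and 28.2% of all genes. BNIP3, a mitophagy receptor, rose by 3.16 (limma adjusted p 2.48e-11), PDK1, which blocks pyruvate dehydrogenase, by 2.57 (3.48e-10) and MXI1, a repressor of the MYC network, by 1.57 (2.72e-09). In ATRA against day 6 control 7 of the list fell and 2 rose (6 and 2 with slide as a block), against 22.4% and 23.7% of all genes. In 9cRA against day 6 control 6 fell and 3 rose, against 21.8% and 24.8%, and with the block 3 fell and 3 rose. BNIP3 differed by -0.88 (2.98e-07) with ATRA and -0.75 (1.03e-06) with 9cRA, and PDK1 by -0.90 (1.36e-06) and -0.76 (5.1e-06). EPAS1, which encodes a hypoxia-inducible factor subunit, rose by 2.31 with each (2.57e-09 and 2.92e-09).

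Of 6 assembly factors of complex III, 2 rose and none fell with ATRA and 2 rose and 1 fell with 9cRA. Over all genes, beside this list and the next, 23.7% rose and 22.4% fell with ATRA. With 9cRA 24.8% rose and 21.8% fell. TTC19 differed by 0.85 (limma adjusted p 1.84e-06) with ATRA and 0.83 (2.34e-06) with 9cRA. PPARGC1A fell with both (-1.37, 3.46e-08 and -1.22, 8.33e-08), in a list where 4 rose and 4 fell with ATRA and 5 rose and 3 fell with 9cRA. With slide as a block that list had 4 rising and 3 falling with ATRA, and none rising and 1 falling with 9cRA. CYCS, cytochrome c itself, differed by -0.35 with ATRA (0.000382) and -0.20 with 9cRA (0.0118), the second a call lost with the block (-0.11, 0.491).

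The labelled cell type was checked against its markers. Of 15 preadipocyte and stromal markers, 14 or 15 were well above background on every array, and their summed signal, relative to the 75th percentile, was 596 to 614 in day 6 control, 358 to 399 in ATRA, 382 to 390 in 9cRA and 365 to 389 in day 0. FABP4, a fat cell marker that binds fatty acids, was 4.34 higher in day 6 control than in day 0 on the log2 scale. It differed by -4.94 with ATRA and -4.64 with 9cRA against day 6 control. With slide as a block, 9 of this list rose and 4 fell in day 6 control against day 0 (25.3% and 28.2% of all genes). Against day 6 control 4 rose and 4 fell with each retinoid (18.9% and 19.9% of all genes with ATRA, 10.3% and 12.8% with 9cRA). The sum thus does not give the course of each marker. Skeletal muscle markers, with 7 to 9 of 13 well above background and DES and ACTA1 leading, summed to 45.2 to 49.5 in day 6 control, 20.2 to 20.6 in ATRA, 21.8 to 23.5 in 9cRA and 74.5 to 79.4 in day 0. The sums follow their brightest members: of 8 muscle markers tested, DES and ACTA1 fell in day 6 control against day 0, MYH3 rose and 5 were not called. The part of muscle marker levels in the subunit result was not tested. Leukocyte markers, 4 or 5 of 8 well above background, summed to 1.82 to 2.76 in day 6 control, 4.91 to 5.04 in ATRA, 4.61 to 5.13 in 9cRA and 2.33 to 2.64 in day 0. Endothelial markers, 2 to 5 of 8 well above background, summed to 0.208 to 0.283 in day 6 control, 0.505 to 0.603 in ATRA, 0.432 to 0.568 in 9cRA and 0.167 to 0.186 in day 0. The summed signal of both lists was thus higher with retinoid, but these sums too follow their brightest members. With slide as a block, 1 endothelial marker rose and none fell with each retinoid against day 6 control. Of the leukocyte markers 3 rose with ATRA and 2 with 9cRA, and none fell. Over all genes 18.9% rose with ATRA and 10.3% with 9cRA under the block. The part of these markers in the retinoid differences was not tested.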

How the data were processed

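RNA of bovine intramuscular preadipocytes was measured on 12 Agilent 1-colour (Cy3) arrays, 3 in each of 4 groups. From 100 ng of total RNA per array, cRNA was made with a poly-dT primer, per the labels' protocols. Each array file holds spot intensity deposited by the authors as output of Agilent Feature Extraction 10.7.3.1, background-subtracted and not normalized between arrays, per the file headers. A further table, deposited by the authors, gives log2 values as 1 mean per group and served as an alternative. Coordinates are on UMD 3.1, per the file headers and the submitters' processing notes.

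The log2 processed signal minus the array's 75th percentile was taken, spots of a probe were averaged, and the probe with the highest mean stood for a gene. Control spots and outlier spots were left out. Group means were fitted over 12 arrays with limma 3.58.1 in R 4.3.3 (lmFit and eBayes, two-sided) and p-values were adjusted over all 17622 genes of each comparison. The fit was tested on simulated data. The number of arrays limits the precision. Alternatives were median and quantile scaling, normexp background correction with an offset of 50, no filter or a stricter filter on dim probes, each probe on its own, slide as a block and leaving out each array.

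Named genes were, per complex and comparison of day 6 control with day 0 and of each retinoid with day 6 control, up to 3 called members with the largest differences, with SDHA to SDHD, NDUFA4, NDUFA4L2, ATP5IF1 and the isoforms of complex IV always, members whose probes disagreed, and up to 3 genes per list with the smallest adjusted p. Members and lists were chosen with earlier results of these data known. Array numbers within a group are only names.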

Additional observations from a re-analysis of the deposited data

How the results depend on the processing

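No paired analysis was possible because array numbers within a group only name arrays and pair nothing across groups. With slide as a block the members called were 32 of 81 in day 6 control against day 0. They were 5 in ATRA and 1 in 9cRA against day 6 control, and 24 and 19 in ATRA and 9cRA against day 0. In that order, the shares of all genes falling and rising under the block were 28.2% and 25.3%, 19.9% and 18.9%, and 12.8% and 10.3%. Against day 0 they were 25.1% and 23.8% for ATRA, and 20.9% and 19.2% for 9cRA. The members' medians against day 0 under the block were -0.19 for day 6 control, -0.16 for ATRA and -0.17 for 9cRA. With each probe taken on its own, 138, 21, 29, 152 and 140 of 184 probes were called in the same order of comparisons, against 61.7%, 43.5%, 43.5%, 70.4% and 69.8% of all 31205 probes. Quantile normalization gave 16 called members in ATRA against day 6 control, against 47.0% of all genes. It gave members' medians of -0.27 for ATRA and -0.20 for 9cRA against day 0. Scaling to the array median gave -0.58 and -0.51 there, with the median of all genes shifted by -0.13 in each. With no filter on dim probes 9 members were called in 9cRA against day 6 control, a count given without its share over all genes. Leaving out 1 array at a time, the called count of members ran between 49 and 68 in day 6 control against day 0. It ran between 7 and 22 in ATRA and between 7 and 21 in 9cRA against day 6 control. With all arrays, 62.3%, 46.1% and 46.6% of all genes were called in these comparisons. The extremes of the members were 22 and 21 without day 6 control array 3, against 46.3% and 46.0% of all genes. They were 8 and 7 in 9cRA without day 6 control array 2 and without 9cRA array 2. Direction changed in several places, among them COX6B2 in 9cRA against day 6 control with the block (-0.12). It changed there too for the median of complex II (0.0047). The median of complex IV in ATRA against 9cRA changed direction without 9cRA array 3 (leaving out 1 array gave -0.085 to 0.051). In ATRA against day 6 control, the block took the median of all members from -0.047 to 0.015. That of complex I went from -0.051 to 0.014 and that of complex V from -0.077 to 0.015. Against day 6 control, leaving out 1 array gave all-member medians of -0.126 to 0.036 with ATRA and -0.081 to 0.086 with 9cRA. The cause was not tested. The authors' deposited table gave a median of -0.35 for day 6 control against day 0. Against day 6 control it gave -0.05 for ATRA and 0.00 for 9cRA. These are the same as here to 2 decimals, but that table holds means of the same samples and is no independent check.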
